A study of Mus musculus with 9 samples.

Results

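Fosb, a transcription factor gene of the FOS family, is 1 of 217 distinct mouse genes for which the deposited tables give RNA levels in Hepa1-6 cells. It was chosen by its presence as a row in both tables of genes higher than control, 1 for P-Por-Os and 1 for P-Por-Os+US, which have 21 genes in common. Joining these rows gave 9 values for Fosb, 3 in each group, and Fosb is 1 of 28 genes with a value in all 9 libraries. The listings rest on these same libraries, so the rise of Fosb over control is described without a test. The one comparison that the choice did not use, between the treated groups, is tested below, although it draws on libraries of both others.

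Hepa1-6 is an established mouse hepatocarcinoma line, labelled wild type in every library. The control group has the treatment label "None", while the series' design text gives PBS. The P-Por-Os group received the material of that name at 25.57 µg/mL, and the P-Por-Os+US group received it at 25.57 µg/mL together with ultrasound. The labels give no time after treatment and no group with ultrasound alone, so the part of ultrasound and that of its combination with the material cannot be told apart. Separate cultures are not stated for the 3 replicates of a group either, and p-values then measure only the spread between these samples, which may be technical. The design asks how mRNA levels differ after P-Por-Os with and without ultrasound.

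FosB is one of the FOS proteins, which pair through a leucine zipper with JUN proteins to form the dimer AP-1 and bind DNA. Fosb is an immediate early gene: its transcription is known to rise quickly and briefly after growth factors, cytokines and cell stress, through kinase cascades that act on factors already present, and its mRNA is short-lived. Splicing yields a second protein, known as ΔFosB, that lacks the C-terminal part of full-length FosB and is known for being more stable.

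Fosb, ENSMUSG00000003545.3, is on the minus strand of chromosome 7 from 19302696 to 19310051 (GRCm38, GENCODE M21), and no other annotated gene overlaps it. GENCODE M21 gives it 7 transcript models, of which 6 are coding and 1, Fosb-204, is a retained-intron model. Of the coding models, 4 end at the full-length stop codon and 2 at the ΔFosB stop codon. Both of the latter lack 140 bases within the last exon, chr7:19305007-19305146. The coding models also differ from one another in other exons. The bases at that splice are shown because they separate the 2 stop codons. Capitals mark the bases after the splice position, from GENCODE's transcript sequences:

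Fosb-201, full-length FosB: ccaggcccgctggccgagGTGAGAGATTTG

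Fosb-206, ΔFosB: ccaggcccgctggccgagTGA

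Reading through gives an open reading frame of 338 codons in Fosb-201, while the splice places TGA, a stop codon, directly after the shared bases and leaves 237 codons in Fosb-206. Each deposited value is a sum over the whole gene, so FosB and ΔFosB mRNA cannot be told apart here.

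**Figure D1:**
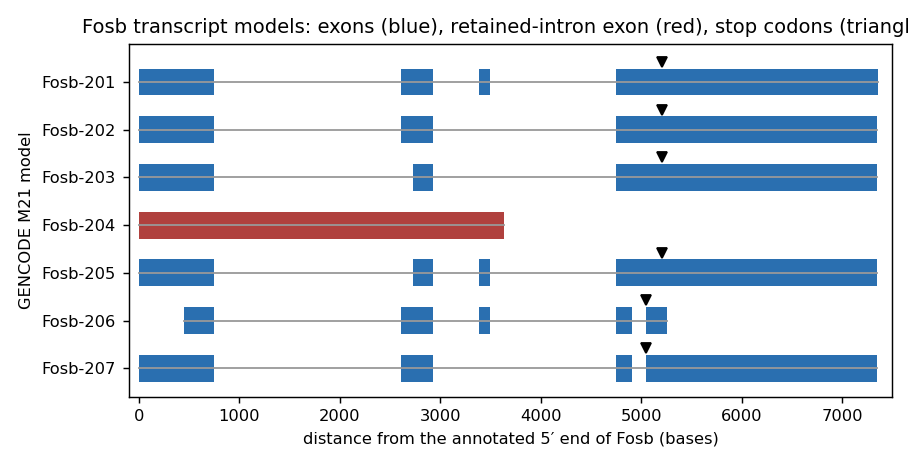
Transcript models of Fosb in GENCODE M21, drawn as distance in bases from the annotated 5′ end. Blue boxes are exons, the red box is the exon of the retained-intron model Fosb-204, and triangles mark stop codons, of which the 2 of Fosb-206 and Fosb-207 lie upstream of the other 4.

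The retained-intron model bears on the scale of the values. RPKM is a read count scaled to gene length in kb and to library total. The exons of all models cover 6243 bases together, of which 2461 bases, 39.4 percent, belong to the retained-intron model alone. The authors' deposited mean of 33.1 CPM (reads scaled to library total, without the length) and the mean RPKM of the same 6 libraries imply a length of 6.16 kb, close to this full cover. Reads within the first introns therefore counted toward Fosb, and spliced and unspliced RNA cannot be told apart. Were all reads in the other models' exons, which cover 3782 bases, RPKM would be 1.65 times higher in every library, with the ratios between libraries the same.

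Upstream of the gene, 244 bases are shown from RefSeq's promoter table (GRCm38.p6, minus strand, chr7:19310052-19310295), since the kinase pathways that induce Fosb act on its promoter. Capitals mark the motif matches named below:

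Fosb promoter: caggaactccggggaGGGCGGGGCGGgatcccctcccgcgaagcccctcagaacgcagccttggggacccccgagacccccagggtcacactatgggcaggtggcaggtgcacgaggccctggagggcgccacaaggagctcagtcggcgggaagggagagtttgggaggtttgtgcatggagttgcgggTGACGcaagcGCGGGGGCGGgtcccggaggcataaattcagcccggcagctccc

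Motifs were searched on both strands over 300 bases, from 250 before RefSeq's start to 50 after it, with bases numbered from that start, in 32851 promoters of the table. The Fosb window held the half-site of the cAMP response element, TGACG, from base -60, and 20.8 percent of promoters held it. It held GGGCGG, the GC box, from bases -235, -230 and -46, the first pair sharing a base, and 35.7 percent of promoters held at least one. An EGR site, GCGNGGGCG, began at base -50 and overlapped the last GC box, and 5.55 percent of promoters held one. The AP-1 site TGANTCA, the full cAMP response element TGACGTCA, the CArG box bound by serum response factor, the TATA box TATAAA and the metal response cores TGCACNC and TGCGCNC had no match in these 300 bases. The shares of promoters with those motifs were 7.81, 1.79, 1.63, 13.6, 12.6 and 15.4 percent, in that order. The Fosb window was 68.3 percent G or C, against a median of 52.7 percent, and 88.0 percent of promoters had less. None of the motif shares is adjusted for this base content. A match is a description of letters, and nothing about binding follows from it or from its absence.

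Fosb RNA was lowest in the control libraries and higher after P-Por-Os, with and without ultrasound. Control libraries held 2.28, 2.50 and 2.48 RPKM, in the order of replicates 1, 2 and 3. P-Por-Os libraries held 6.72, 4.95 and 7.05 RPKM. P-Por-Os+US libraries held 7.59, 7.54 and 9.86 RPKM. No group overlapped another: each P-Por-Os library lay above each control library, and each P-Por-Os+US library lay above each P-Por-Os library. Other genes with 9 values, such as Mt1 and Slc30a1 below, separated in the same way, so this is not particular to Fosb. The closest approach between treated groups was 7.54 RPKM in P-Por-Os+US replicate 2 and 7.05 RPKM in P-Por-Os replicate 3, a gap of 0.483 RPKM. The group means were 2.42 ± 0.125 RPKM in control, 6.24 ± 1.13 after P-Por-Os and 8.33 ± 1.33 after P-Por-Os+US (SD, n = 3 each). In bulk RNA, more cells that express a gene and more RNA per cell cannot be told apart.

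**Figure D2:**
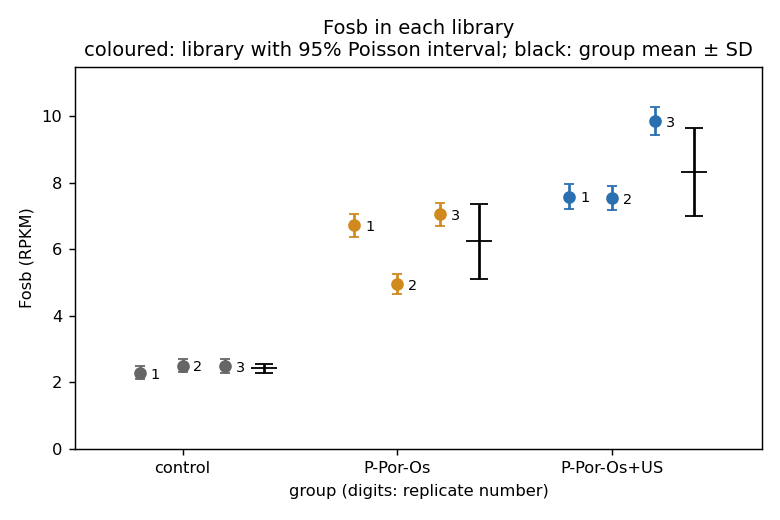
Fosb level in RPKM in each library, by group, with replicate numbers. Coloured bars are 95% Poisson intervals of the reads, black marks are group means ± SD of 3 libraries. Control libraries lie between 2.28 and 2.50 RPKM, P-Por-Os libraries between 4.95 and 7.05, and P-Por-Os+US libraries between 7.54 and 9.86.

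These levels rest on many reads. Low RPKM values fall on steps of whole reads, which gave library totals between 34741000 and 37668000 reads, and at these totals Fosb came to within 0.01 of a whole number in each library. Control libraries held 535, 564 and 545 Fosb reads, P-Por-Os libraries 1536, 1110 and 1585, and P-Por-Os+US libraries 1656, 1672 and 2138, in replicate order. Counting error, as the Poisson standard deviation over the mean, was at most 4.32 percent in control and 3.0 percent in treated libraries. The 95% exact Poisson interval of P-Por-Os replicate 2, 4.66 to 5.25 RPKM, lay below that of P-Por-Os replicate 1, 6.39 to 7.06 RPKM. The interval of P-Por-Os+US replicate 3, 9.44 to 10.3 RPKM, lay above that of its group's replicate 1, 7.23 to 7.96 RPKM. These intervals cover counting error only, and the treated libraries of one group differed by more than that.

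Fosb varied between libraries unlike most listed genes. In control, its coefficient of variation (SD over mean) was 5.15 percent, close to its counting error, and 95 of the 98 other listed genes at or above a mean of 1 RPKM varied more, with a median of 17.4 percent over all 99. After P-Por-Os it was 18.1 percent against a median of 7.31 percent over 121 genes, and 12 genes varied more. After P-Por-Os+US it was 15.9 percent against a median of 10.8 percent over 61 genes, and 15 varied more. The genes were listed for differences between these libraries, which also selects on their spread, so the ranks describe these tables alone.

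**Figure D3:**
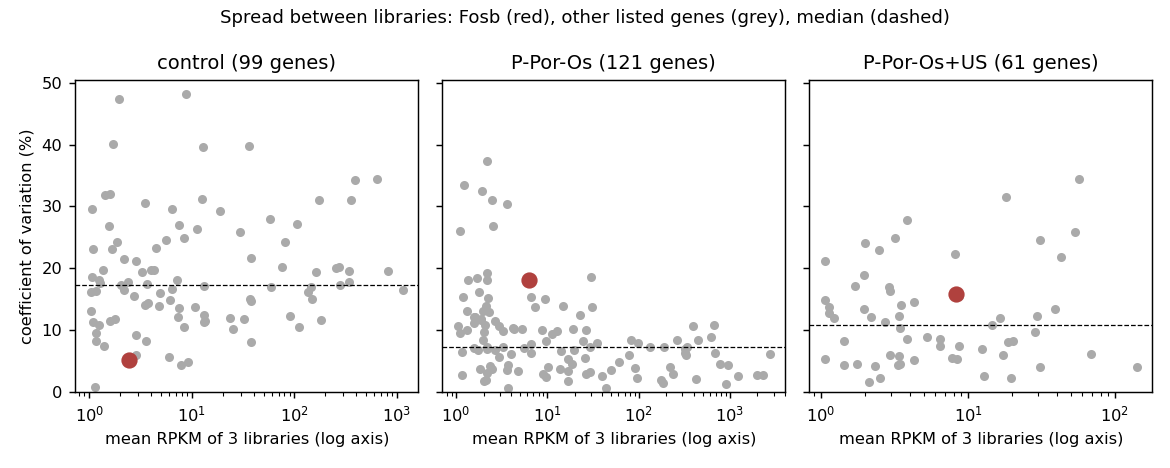
Coefficient of variation in percent against mean RPKM (log axis) for listed genes at or above a mean of 1 RPKM, in each group. Fosb is red, other genes grey, the dashed line is the median. Fosb lies near the bottom in control, at 5.15 percent, and above the median in both treated groups.

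The deviations of Fosb from its group mean were set beside those of other listed genes in the same library. P-Por-Os replicate 2 lay 0.27 below its group mean for Fosb on the log2(RPKM + 1) scale, while the median deviation of 120 other genes was 0.02. P-Por-Os+US replicate 3 lay 0.23 above its group mean for Fosb, and the median of 60 other genes was 0.01. Control replicate 1 was the lowest of its group for Fosb, at -0.06, and for 98 other genes, at a median of -0.18. Control replicate 3 had a median of 0.19 over those genes, where Fosb deviated by 0.03. What sets these libraries apart for Fosb was not tested.

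Against control, Fosb was among the 160 genes listed as higher after P-Por-Os, 1.05 percent of the 15270 tested. The ratio of mean RPKM was 2.58, and the authors' deposited table gives a log2 fold of 1.24. Fosb was 78th of 160 by fold, where the median listed log2 fold was 1.24, and 31st by mean CPM. By p it was 104th of 160, with 0.00016 in the authors' deposited table, which is place 2907 of all 15270 genes tested. Leaving out P-Por-Os replicate 2, the lowest library of its group, moved the log2(RPKM + 1) difference from 1.07 to 1.21.

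With ultrasound, Fosb was among the 61 genes listed as higher than control, 0.403 percent of 15142 tested. The ratio of mean RPKM was 3.44, and the lowest P-Por-Os+US library was 3.02 times the highest control library. The authors' deposited table gives a log2 fold of 1.72, where the median listed log2 fold was 1.16, and Fosb was 8th of 61 by fold and 8th by mean CPM. Its p in the authors' deposited table, 4.3e-11, was the second smallest of the 61, after 9.5e-12 for the metallothionein gene Mt1. Both tables use the same 3 control libraries, so the 2 folds are not independent, and the listing itself chose the gene.

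**Figure D4:**
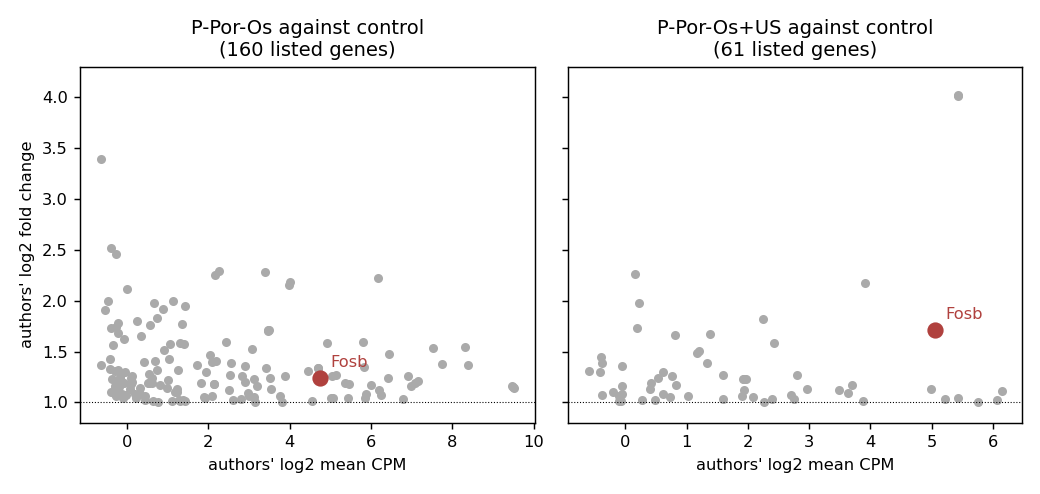
The authors' log2 fold change against their log2 mean CPM for each gene listed as higher than control, after P-Por-Os (160 genes) and P-Por-Os+US (61 genes). Fosb, in red, lies at 1.24 in the first and at 1.72 in the second, and the dotted line is the listing minimum of 1.

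Whether ultrasound added to the response was examined by comparing both treated groups. Fosb was 1.33 times higher with ultrasound as a ratio of mean RPKM, and all 3 P-Por-Os+US libraries lay above all 3 P-Por-Os libraries. Among the 28 genes with 9 values, Mt1, Mt2, Slc30a1, 1700034H15Rik, Insig1 and Nipal1 separated in the same direction. Cd14 separated in the opposite one, while the treated groups of Slc20a1 and 9830144P21Rik overlapped. These genes were themselves listed for differences between groups, so such separation does not set Fosb apart. The difference of 0.37 on the log2(RPKM + 1) scale had a two-sided exact permutation p of 0.1, which is the smallest that 3 against 3 libraries allow. Fosb was not among the 27 genes listed as higher in this contrast (0.179 percent of 15074 tested), a list that starts at a log2 fold of 1. In a limma fit of all 9 libraries over the 28 genes with values in each, the difference was 0.37 ± 0.13 (SE). Its 95% interval ran from 0.08 to 0.65, with an adjusted p of 0.032. The fit pools the spread of all 3 groups. The coefficient of variation of Fosb was 5.15 percent in control, 18.1 percent after P-Por-Os and 15.9 percent after P-Por-Os+US. Control libraries, which are not in this contrast, thus made the SE smaller and the interval narrower. In that fit 14 of 28 genes, 50 percent, reached an adjusted p under 0.05, 12 of them (42.9 percent of 28) being higher with ultrasound. Of the 28, 10 were listed in this same contrast, and Fosb was 14th of the 28 by p. Genes chosen for this contrast lower the adjusted p of the others, and the limma p of Fosb before adjustment was 0.016. Its adjusted p therefore describes this selected set of 28 alone. The unadjusted p, the SE and the interval depend on that set too, since limma draws each gene's variance toward those of the other genes. The limma adjusted p was 0.14 without P-Por-Os replicate 2, with a difference of 0.23, and 0.11 without P-Por-Os+US replicate 3, with a difference of 0.25. It was also above 0.05 without control replicate 2, at 0.051 with the difference still 0.37, and with a pseudocount of 0.1, at 0.052 with a difference of 0.42. The size of the difference thus rests in part on P-Por-Os replicate 2 and P-Por-Os+US replicate 3.

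Other immediate early genes were looked up from lists of 69 genes in all, chosen with earlier results of these data known. Their counts are to be read against the 1.05, 0.403 and 0.179 percent of all tested genes that the 3 tables list. Of the FOS family, 1 of 4 was listed, Fosb, while Fos, Fosl1 and Fosl2 were not among the rows of any table. None of the JUN genes Jun, Junb and Jund, which encode its dimer partners, was listed, 0 of 3. None of the EGR genes Egr1, Egr2, Egr3 and Egr4, zinc finger factors induced by the same signals, was listed, 0 of 4. The counts were 0 of 13 for ATF, MAF and BATF factors, 0 of 33 for other immediate early genes such as Myc, Nr4a1 and Ier2, and 0 of 12 for feedback regulators such as the phosphatase gene Dusp1 and the mRNA decay factor gene Zfp36. Of 17 factors and kinases that act on the Fosb promoter, such as Srf, Elk1 and Creb1, 0 were listed. The tables hold genes listed as higher with a log2 fold of at least 1, so genes that fell, rose by less or were not tested are all without a row. The lists therefore do not show that these genes were unchanged, and at such shares few or no members would be listed of any genes.

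Genes known in other cells as targets of AP-1 gave 5 of 26 after P-Por-Os, 1 of 26 after P-Por-Os+US and 1 of 26 between the treated groups, where 1.05, 0.403 and 0.179 percent of all tested genes were listed. That list too was drawn up with these results known, so its counts support nothing. The 5 genes after P-Por-Os were Csf2, Ivl, Krt16, Edn1 and Mt2. Csf2, which encodes the cytokine GM-CSF, was at 5.77, 7.36 and 8.36 RPKM in control and at 18.1, 20.0 and 20.7 after P-Por-Os. Ivl, which encodes the epidermal envelope protein involucrin, was at 2.69, 3.04 and 2.90 RPKM in control and at 13.0, 14.8 and 14.1 after P-Por-Os. In both genes the groups stood far apart, and P-Por-Os replicate 2, the lowest library for Fosb, was not the lowest. Krt16, a keratin gene, was at 0.0679, 0.0707 and 0.0364 RPKM in control and at 0.698, 0.712 and 0.675 after P-Por-Os. Edn1, which encodes endothelin, was at 0.0793, 0.177 and 0.170 RPKM in control and at 0.524, 0.808 and 0.676 after P-Por-Os. These 4 genes have no row with P-Por-Os+US values, so their levels with ultrasound are not analysed here. Mt2, a metallothionein gene whose human counterpart is a classic AP-1 target, was the only one in all 3 tables, at 6.68 to 10.7 RPKM in control, 28.3 to 32.1 after P-Por-Os and 135 to 147 after P-Por-Os+US.

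The genes most like Fosb were found by the Pearson correlation of log2(RPKM + 1) over the 9 libraries, among the 27 other genes with values in each. All 27 had been listed as higher in at least 2 tables, and the 9 points fall into 3 groups that share controls, so high values are built in: the median was 0.88 and the lowest 0.49. The highest were 9830144P21Rik at 0.97, Slc30a1 at 0.96, 1700034H15Rik at 0.96, Mt1 at 0.95 and Slc20a1 at 0.95. Slc30a1 encodes a zinc exporter and Slc20a1 a phosphate transporter, while Mt1 encodes a zinc-binding metallothionein. The other 2 are non-coding models that overlap such genes on the opposite strand, 9830144P21Rik with Slc20a1 on chromosome 2 and 1700034H15Rik with Slc30a1 on chromosome 1. The strand setting of the counting is not given in the sources used here, so in each pair reads of the overlap cannot be assigned.

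Within groups, after group means were removed, likeness to Fosb differed among these 5 genes. The correlation over the 9 deviations was 0.69 for Slc20a1, 0.66 for 9830144P21Rik and 0.64 for Mt1, against 0.26 for 1700034H15Rik and -0.17 for Slc30a1. Insig1, at 0.74, and Nipal1, at 0.71, are outside the 5 and had higher values. With 3 libraries per group these values are imprecise, and differences between them were not tested. Mt1 was at 3.58, 4.13 and 5.25 RPKM in control, at 9.69, 8.90 and 10.5 after P-Por-Os and at 19.2, 19.2 and 22.1 after P-Por-Os+US. As for Fosb, replicate 2 was the lowest P-Por-Os library and replicate 3 the highest P-Por-Os+US library. Slc20a1 was at 0.799, 0.837 and 0.933 RPKM in control, at 1.82, 1.85 and 2.29 after P-Por-Os and at 1.70, 1.96 and 2.23 after P-Por-Os+US. Its treated groups overlapped, unlike those of Fosb, Mt1 and Slc30a1. Slc30a1 was at 0.380, 0.422 and 0.358 RPKM in control, at 1.25, 1.15 and 1.10 after P-Por-Os and at 1.50, 1.41 and 1.38 after P-Por-Os+US. In this gene replicate 3, the highest treated library for Fosb in both groups, was the lowest. By Spearman's correlation 3 of the 5 genes stayed among the 5 highest, and Mt1 and Nipal1, which is not one of the 5, shared the highest value of 0.97. Over all 27 other genes, 14 had means that rose from control to P-Por-Os to P-Por-Os+US, as Fosb did.

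**Figure D5:**
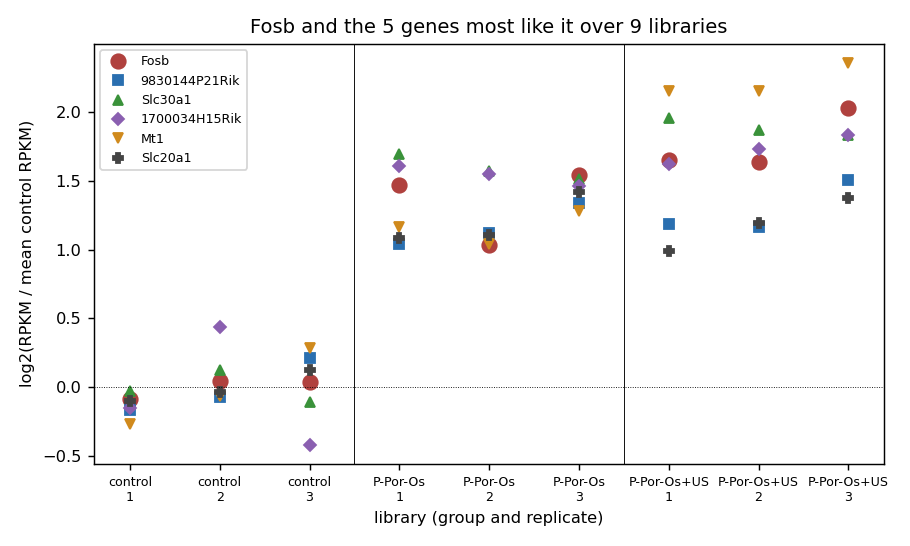
Level in each of the 9 libraries relative to the gene's mean control level, as log2(RPKM / mean control RPKM), for Fosb and the 5 genes with the highest correlation with it. All 6 lie above their control mean in each treated library, and P-Por-Os replicate 2 is low for Fosb.

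The cell line could not be checked against hepatocyte and hepatoma markers such as Alb and Afp, since 0 of 10 were listed and no levels of the others were given. Of 13 markers of myeloid cells, endothelium and fibroblasts, 1 was listed, Cd14, which encodes an endotoxin co-receptor of myeloid cells. The tables against control, where Cd14 has its rows, list 1.05 and 0.403 percent of all tested genes. Cd14 was at 1.52, 1.34 and 1.34 RPKM in control, at 4.07, 4.25 and 3.76 after P-Por-Os and at 3.31, 3.62 and 3.41 after P-Por-Os+US. It was higher than control in the same groups as Fosb, but each P-Por-Os+US library lay below each P-Por-Os library, opposite to Fosb, and its part in the Fosb result was not tested. The nearest listed gene to Fosb on chromosome 7 was Exoc3l2, 153280 bases away, at 0.159, 0.0688 and 0.106 RPKM in control and 0.279, 0.298 and 0.208 after P-Por-Os, with no row for P-Por-Os+US.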

How the data were processed

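RNA of Hepa1-6 cells was sequenced as stranded libraries, 3 per group, per the labels' protocols, which name an mRNA kit and an rRNA depletion kit without saying which was used where. The submitters' processing notes name fastp 0.23.4, featureCounts of Subread 1.5.1, edgeR 3.12.1 and GRCm38; for the aligner and strand setting, the sources used here give nothing. The authors deposited RPKM values, log2 fold changes, log2 mean CPM, F scores and p-values with adjusted values for listed genes only. RPKM cannot be told from FPKM.

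Numbers tested were taken as those that best made p over adjusted p whole ranks (80.3, 75.0 and 70.4 percent whole within 0.02). Depth came from whole-read steps below 400 reads, with GENCODE M21 exon lengths of 208 symbols: 84.7 to 90.1 percent of values were whole within 0.05, against at most 10 percent in the median of other depths. No count test was run, since RPKM values are not counts. Values used a pseudocount of 1, which understates folds. The main test was an exact permutation test (scipy 1.17.1), with limma 3.58.1 (R 4.3.3, Benjamini-Hochberg adjustment over 28 genes) as an alternative. Data were simulated for the contrast of the treated groups, with 1000 genes and the same spread in each group. There limma called 100 of 100 genes changed by 1 on the log2 scale, 100 of 100 changed by 2 and 7 of 800 unchanged ones. A difference as small as the 0.37 of Fosb, unequal spreads and a selected set of genes were not simulated. Named genes were Fosb, listed members of the gene lists, and the 5 genes of highest correlation with Fosb. Exoc3l2, Nipal1, Insig1 and the examples of unlisted genes were added after values were seen. Members and lists were chosen with earlier results of these data known.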

Additional observations from a re-analysis of the deposited data

How the results depend on the processing

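On the log2(RPKM + 1) scale the difference from control was 1.44 with ultrasound and 1.07 without. These became 1.73 and 1.32 with a pseudocount of 0.1 and 1.77 and 1.35 with none, as a smaller pseudocount raises folds by construction. The authors' log2 folds differed from log2 ratios of mean RPKM by a median of -0.059 with ultrasound and -0.119 without. Adding these offsets to the log2(RPKM + 1) differences gave 1.38 and 0.95. Those 2 values mix 2 scales and are not the authors' estimates for Fosb, which are 1.72 and 1.24. Without each library the log2(RPKM + 1) differences were 1.33 to 1.50 and 0.99 to 1.21. Between the treated groups the difference of 0.37 ran from 0.23 to 0.45 without each library, and the exact permutation p was 0.1 with all libraries and 0.2 with one left out, which no setting could bring under 0.05. The limma adjusted p over all 9 libraries was 0.032, and 0.022 with a minimum mean of 1 RPKM, both at a difference of 0.37. Without each library it ran from 0.024 to 0.14. The limits given with the limma fit above, on chosen genes, pooled spread and variance drawn toward other genes, hold for every limma adjusted p in these sections. The limma fits without a library or with a pseudocount of 0.1 were chosen after seeing the data.

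Groups share replicate numbers, but same-numbered libraries of the treated groups had deviations correlated over 28 genes at 0.06 to 0.13, not over 0.1 in every pair. Over all same-numbered pairs, control included, the range was -0.07 to 0.52, with 0.12 to 0.33 between control and P-Por-Os, where Fosb has no test and a block leaves the difference of means as it is. For 4 of 9 libraries the closest library of another group bore the same number. Adding a replicate block, the difference stayed 0.37, with an exact sign-flip p of 0.25, the smallest that 3 pairs allow, and a limma adjusted p of 0.016. Direction was the same in all 41 alternatives for Fosb. Since no group overlapped another, leaving out a library or changing the pseudocount could not reverse it. The comparisons with control are also those that chose the gene, so this count is no support. No filter on low values was tried for Fosb alone. Fosb had 535 or more reads in every library.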
